A study of Mus musculus with 6 samples.

Results

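Astrocyte identity genes were described as a set of 10 genes whose transcripts are enriched in astrocytes and that are not used as markers of astrocyte reactivity: Sox9, Nfia, Aldh1l1, S100b, Fgfr3, Ntsr2, Slc4a4, Slco1c1, Mlc1 and Btbd17. They were chosen by name, with earlier results of these data known, and all 10 were found among the 49315 genes counted. RNA from the cerebral cortex of wild type mice was sequenced in 6 libraries, and all mice had received both a vector and lipopolysaccharide (LPS), a component of the bacterial cell wall that causes systemic inflammation. At 21 days of age, the 3 control samples (shScr) came from mice given AAV-PHP.eB-Gfap-GFP-shScr, and the other 3 (shFabp7) AAV-PHP.eB-Gfap-GFP-shFABP7. AAV-PHP.eB is a capsid that reaches the brain from the blood, GFP is a fluorescent reporter, and the Gfap promoter restricts expression largely to astrocytes. From 4 months of age LPS was injected 3 times at weekly intervals at 1 mg/kg, with tissue collected 24 h after the last injection. No group without LPS, without vector or without shRNA was analysed here. Whether the samples came from separate animals is not stated in the labels. The p-values reflect the spread among the samples, which in both groups include libraries of either sex and so do not all stem from 1 animal.

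Astrocytes arise from radial glia under transcription factors of the SOX and nuclear factor I families, and keep expressing these factors in the adult cortex. Mature astrocytes clear glutamate and potassium, buffer pH and water at vessels and synapses, and carry receptors for growth factors and peptides. When inflamed they raise reactivity genes such as Gfap, whereas identity genes mark the cell type itself. In a bulk library fewer cells of a type and less RNA per cell cannot be told apart.

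Total counts ranged from 16914012 to 18991235 per library. Fabp7, the target of the shRNA, had 26.3, 15.1 and 15.8 CPM in shScr libraries 1 to 3 and 5.55, 2.49 and 3.52 CPM in shFabp7 libraries 1 to 3 (CPM, counts per 1000000 after TMM scaling of the library totals). The shFabp7 libraries therefore held 20.2% of the mean shScr level, with no overlap, at an adjusted p of 0.0704 in edgeR, above the threshold of 0.05. Over the alternative settings this adjusted p ran from 5.35e-13 to 0.337. Libraries differed in more than the shRNA. Xist exceeded the Y-linked genes in shScr library 3 and in shFabp7 libraries 2 and 3, which marks these as female and the other 3 as male. Markers of neighbouring regions (33 genes of hippocampus, striatum, thalamus and hypothalamus, ependyma and choroid plexus) averaged 4.10, 3.05 and 3.60 log2 CPM across the shScr libraries and 3.05, 2.59 and 3.22 across the shFabp7 libraries, in the order of their numbers. The highest value was that of shScr library 1, but the regions differed. Summed striatal markers were highest in shFabp7 library 3, at 1684 CPM against 1408 CPM in shScr library 1. Summed hippocampal markers were 292 CPM in shScr library 1 and 273 CPM in shScr library 3. Each marker gene of these regions had at least 1 read in the 6 libraries together.

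Of the 10 genes, Btbd17 was the 1 that rose, to 1.61-fold of its shScr level, and none of the others passed the threshold in either direction. Across all 17185 genes tested, 0.116% passed in either direction and 0.0582% were higher in shFabp7. The median log2 fold change of the 10 genes was 0.05, with 6 above 0 and 4 below, beside a median of -0.01 over all genes tested. Point estimates of the other 9 genes ran from -0.32 for Sox9 to 0.24 for Aldh1l1. At an unadjusted p under 0.05 there were 5 of the 10, namely Btbd17, Aldh1l1, S100b and Fgfr3 above 0 and Sox9 below, beside 16.8% of all genes tested. The groups did not overlap for Btbd17, Aldh1l1, Fgfr3 and Sox9, 4 of the 10, beside 22.9% of all genes tested. DESeq2 also called Btbd17 and none of the other 9, and it called 4.28% of the 15849 genes to which it gave an adjusted p.

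**Figure D1:**
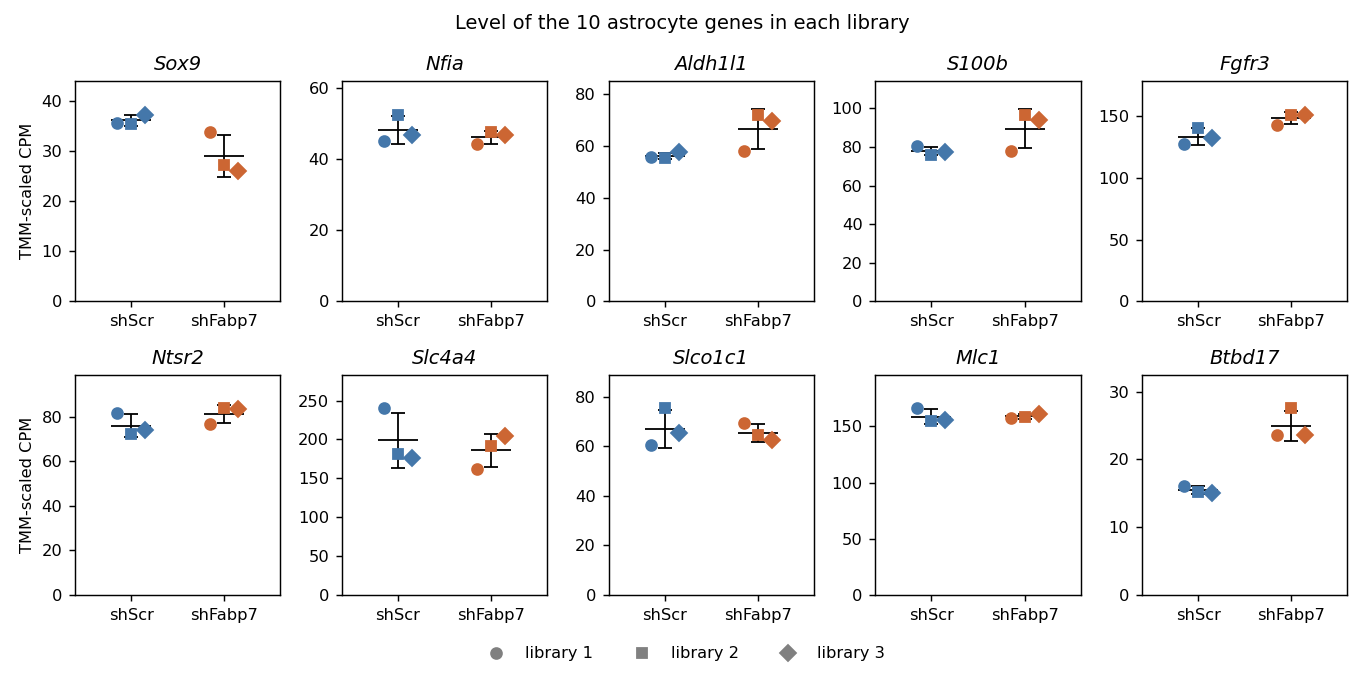
Level of each gene in CPM (vertical axes, from 0) in the 3 shScr and 3 shFabp7 libraries; symbols mark the library number, and black bars the mean ± SD (n = 3). Btbd17 lies between 15.1 and 16.1 CPM in shScr and between 23.6 and 27.5 CPM in shFabp7, while the Mlc1 groups share nearly the same level.

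Btbd17 encodes a protein with a BTB domain, a fold that mediates contacts between proteins. It is located on the minus strand of chromosome 11, at 114791217 to 114795945 (GRCm38, ENSMUSG00000000202). All 10 genes are protein-coding, and the positions given for them here are those in the files. The libraries held 297, 285 and 277 Btbd17 reads in shScr and 396, 453 and 443 in shFabp7. Scaled, these were 16.1, 15.1 and 15.1 CPM in shScr libraries 1 to 3 and 23.6, 27.5 and 23.6 CPM in shFabp7 libraries 1 to 3. Every shFabp7 library was above every shScr library, and the gap between the groups exceeded the range within either. Means were 15.5 ± 0.588 and 24.9 ± 2.24 CPM (SD, n = 3 each). The log2 fold change was 0.69 (SE 0.10, 95% interval 0.47 to 0.90), with an adjusted p of 0.0411 in edgeR, and Btbd17 ranked 12 among all genes by p. An exact two-sided permutation test over the 6 libraries gave p = 0.1, the smallest that 3 against 3 allows. The size of the difference held over 16 alternative settings, from 0.61 to 0.73, but the call did not. Adjusted p was 0.103 with sex as a covariate, 0.164 with the regional score as a covariate, 0.0981 without shScr library 3, 0.0844 without shFabp7 library 1, 0.310 without shFabp7 library 2 and 0.170 without shFabp7 library 3. Within the male libraries Btbd17 averaged 15.6 CPM in the 2 shScr and 23.6 CPM in the 1 shFabp7 library, and within the female libraries 15.1 CPM in the 1 shScr and 25.6 CPM in the 2 shFabp7 libraries.

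Promoter windows were examined for the gene that was called and the next genes by p that had an entry in the RefSeq table (GRCm38.p6), to show what lies upstream of a gene that rose and of genes that did not pass. Of the 10 genes, 9 had an entry, with 11 start sites in all, and Sox9 had none. The 250 bases before the start site are printed 5′ to 3′ on the strand of the gene, in lower case because none of the motifs searched occurs in them: Btbd17 at chr11:114795893-114796142 on the minus strand, Aldh1l1 at chr6:90550543-90550792 on the plus strand and the first start site of Fgfr3 at chr5:33721474-33721723 on the plus strand.
Btbd17: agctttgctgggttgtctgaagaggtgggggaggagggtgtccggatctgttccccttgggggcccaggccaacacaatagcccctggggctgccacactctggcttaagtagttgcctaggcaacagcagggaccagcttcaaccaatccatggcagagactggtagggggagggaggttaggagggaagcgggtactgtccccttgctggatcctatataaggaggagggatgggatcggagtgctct
Aldh1l1: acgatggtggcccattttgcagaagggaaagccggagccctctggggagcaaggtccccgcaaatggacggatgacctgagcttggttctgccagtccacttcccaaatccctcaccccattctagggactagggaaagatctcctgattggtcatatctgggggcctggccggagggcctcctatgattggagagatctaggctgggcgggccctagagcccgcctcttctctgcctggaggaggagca
Fgfr3: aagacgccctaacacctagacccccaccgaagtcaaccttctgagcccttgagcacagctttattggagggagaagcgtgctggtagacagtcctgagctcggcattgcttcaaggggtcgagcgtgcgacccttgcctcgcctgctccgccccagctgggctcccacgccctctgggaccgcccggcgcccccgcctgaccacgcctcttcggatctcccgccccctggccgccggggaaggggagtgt

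Guanine and cytosine made up 58.8% of the Btbd17 stretch, 59.6% of that of Aldh1l1 and 66.8% of that of Fgfr3, and the 3 stretches held 3, 7 and 19 CpG dinucleotides. Motifs were searched on both strands in the 300 bases of each window, 250 before and 50 from the start: TTGGCA for nuclear factor I, ACAATG for SOX factors, TTCNNNGAA for STAT factors and TGANTCA for AP-1. The letters of these motifs do not overlap each other in the windows of the 10 genes. TTGGCA was in 14.1% of all 32851 windows of the table, ACAATG in 12.6%, TTCNNNGAA in 8.30% and TGANTCA in 7.81%. Among the 11 windows, the nuclear factor I letters occurred in that of S100b, the SOX letters in that of Nfia and the STAT letters in that of Ntsr2, once each, and the AP-1 letters in none. The 3 matches are shown with 12 bases on each side and with the motif in capitals: Nfia at chr4:97581839-97581868, S100b at chr10:76253805-76253834 and Ntsr2 at chr12:16653396-16653428, each on the plus strand, the Nfia match being the reverse complement of ACAATG.
Nfia: gagagattggttCATTGTcaaggagatttt
S100b: ccttggcccccaTTGGCAgcctcagcctgc
Ntsr2: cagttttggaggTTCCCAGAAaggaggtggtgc

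The matches began 92, 19 and 62 bases before the RefSeq start site, and none of the 3 genes passed the threshold. The Nfia start site lies upstream of the interval given for Nfia in the files, so it is outside the exons whose reads were counted, and that of Aldh1l1 lies inside the interval of its gene. A match describes letters in these windows and no more.

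The transcription factors of the set both had estimates below 0, and neither passed. Sox9, an HMG-box factor needed for the switch from neuron to glia production and kept in adult astrocytes, lies on chromosome 11 from 112782224 to 112787760, 2003457 bases before Btbd17. Sox9 had 35.6, 35.4 and 37.2 CPM in shScr libraries 1 to 3 and 33.8, 27.3 and 25.9 CPM in shFabp7 libraries 1 to 3. The shScr libraries lay close together and above every shFabp7 library, and shFabp7 library 1 was nearer to them than to the other shFabp7 libraries. Means were 36.1 ± 1.01 and 28.98 ± 4.21 CPM (SD, n = 3 each). On the log2 scale the difference was -0.32 (SE 0.10), and edgeR gave an adjusted p of 0.187. The estimate stayed below 0 in all 16 alternatives (-0.44 to -0.24), and passed in 1 of them, the fit without a filter on low counts (adjusted p = 0.0191). That fit called 1617 of the 30935 genes it tested, against 20 of 17185 in the main fit. Nfia (chr4:97772734-98118874), the nuclear factor I member that starts gliogenesis, had 45.0, 52.4 and 46.6 CPM in shScr and 44.1, 47.5 and 46.7 CPM in shFabp7. These ranges overlapped, and its log2 fold change of -0.06 had a 95% interval from -0.23 to 0.11; the sign turned without shScr library 2.

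Aldh1l1 and S100b, the cytosolic proteins of the set, had estimates above 0 that did not pass. Aldh1l1 (chr6:90486427-90600203), a formyltetrahydrofolate dehydrogenase of folate metabolism and the standard pan-astrocyte marker, had 55.7, 55.5 and 57.5 CPM in shScr and 58.0, 72.1 and 69.7 CPM in shFabp7. The groups were apart only narrowly, since shFabp7 library 1 was within 1 CPM of shScr library 3. Its log2 fold change was 0.24 (SE 0.08, 95% interval 0.06 to 0.43) with an adjusted p of 0.201 in edgeR, and it passed in 1 of 16 alternatives, the fit without a filter (adjusted p = 0.0476). That fit called 1617 of 30935 genes. Its exons share bases with Gm15756 on the opposite strand, which had 0 to 7 reads per library against 971 to 1307 for Aldh1l1. A further 2.3% of its exon bases are shared with Gm45901 on the same strand, which had 0, 0 and 1 reads in shScr and 2, 5 and 5 in shFabp7. S100b (chr10:76253853-76261159), a calcium-binding EF-hand protein of astrocytes that some oligodendrocytes and ependymal cells also make, had 80.3, 76.1 and 77.4 CPM in shScr and 77.8, 96.7 and 93.8 CPM in shFabp7. Here shFabp7 library 1 fell inside the shScr range, whereas libraries 2 and 3 were above it. The log2 fold change was 0.20 (SE 0.08, 95% interval 0.01 to 0.38) and the adjusted p 0.268. Summed oligodendrocyte markers (10 genes) ran from 3699 to 4743 CPM in shScr and from 4053 to 4841 CPM in shFabp7, and summed ependymal and choroid plexus markers (10 genes) from 17.4 to 37.5 and from 12.02 to 18.98 CPM. Their part in the S100b and Sox9 values was not tested.

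Among the receptors, Fgfr3 was above its shScr levels in each shFabp7 library by a small margin. Fgfr3 (chr5:33721674-33737068), a receptor tyrosine kinase for fibroblast growth factors, had 128, 141 and 132 CPM in shScr and 143, 151 and 151 CPM in shFabp7. The log2 fold change of 0.15 (SE 0.06, 95% interval 0.02 to 0.29) had an adjusted p of 0.257 in edgeR and passed in none of the 16 alternatives. Of its exon bases, 13.9% are shared with G630022F23Rik on the opposite strand, which had 41 to 94 reads per library against 2357 to 2842 for Fgfr3. Ntsr2 (chr12:16653470-16660236), a low-affinity receptor for the peptide neurotensin, had 81.7, 72.1 and 74.0 CPM in shScr and 76.6, 83.6 and 83.2 CPM in shFabp7. The ranges overlapped because shScr library 1 was high, and the log2 fold change was 0.10 with an interval from -0.06 to 0.25.

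None of the membrane genes of ion and solute transport passed, and all had groups that overlapped. Mlc1 (chr15:88955884-88979007), a membrane protein of perivascular endfeet whose loss causes a leukoencephalopathy with cysts, had 166, 154 and 156 CPM in shScr and 157, 158 and 161 CPM in shFabp7. Its means were 158.6 ± 6.27 and 158.7 ± 1.95 CPM (SD, n = 3 each), the log2 fold change was 0.00095 (SE 0.06), and the 95% interval on the linear scale ran from 0.916-fold to 1.09-fold. The sign of the Mlc1 value turned without a filter and without shScr library 2, shScr library 3 or shFabp7 library 3. Slc4a4 (chr5:88886818-89239653), the electrogenic sodium bicarbonate cotransporter by which astrocytes regulate pH, had 239.9, 181 and 176 CPM in shScr and 162, 191 and 204 CPM in shFabp7. It was the most variable of the 10 within shScr (coefficient of variation 17.8%), through the high value of shScr library 1, which was also the library with the highest regional marker score. Its log2 fold change of -0.10 (95% interval -0.42 to 0.23) turned to 0.06 without shScr library 1, 0.04 without shScr libraries 1 and 3, and 0.09 with the regional score. Slco1c1 (chr6:141524368-141570177), an organic anion transporter that carries thyroxine and is also made by brain endothelium, had 60.5, 75.2 and 65.2 CPM in shScr and 69.2, 64.4 and 62.3 CPM in shFabp7. All of its shFabp7 values lay inside the shScr range, and the log2 fold change was -0.04 (95% interval -0.23 to 0.15), with a turn to 0.06 without shScr library 2. Summed endothelial markers (10 genes) ran from 480 to 597 CPM in shScr and from 566 to 618 CPM in shFabp7.

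**Figure D2:**
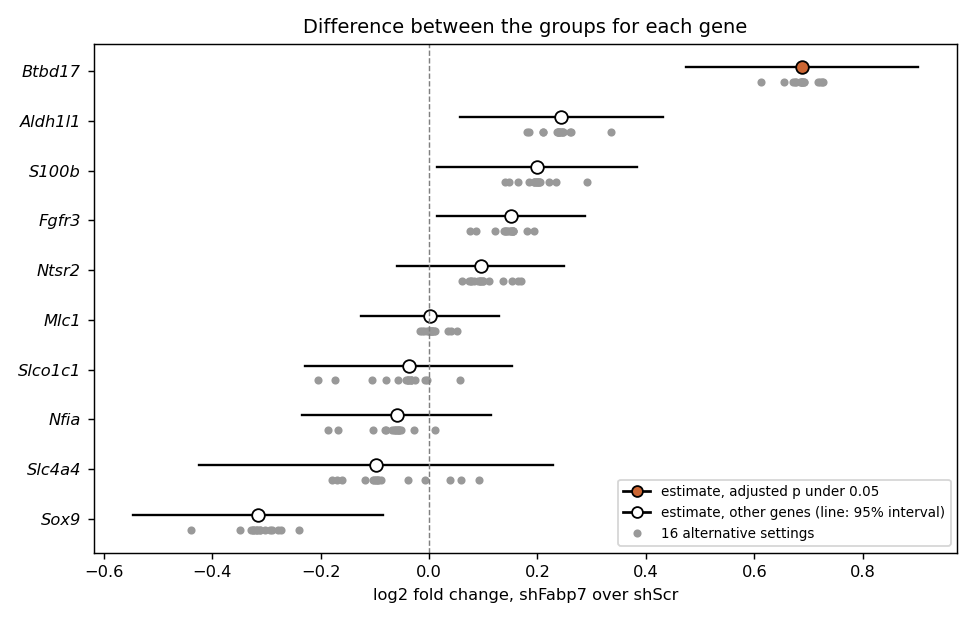
Log2 fold change of each gene, shFabp7 over shScr (horizontal axis), with its 95% interval (line) and, below it, the estimates of 16 alternative settings (grey). Btbd17 at 0.69 is the only filled point, Sox9 at -0.32 lies farthest below 0, and the alternatives of Mlc1, Slco1c1, Nfia and Slc4a4 fall on both sides of 0.

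Per exon length, the 10 genes fell into a high, a middle and a low band. FPKM (counts scaled by exon length and library total) averaged over the 6 libraries was 56.7 for Mlc1, 56.3 for S100b and 50.8 for Ntsr2, which placed these genes between percentiles 94.9 and 95.7 of all genes tested. Mlc1 was above S100b in 4 of 6 libraries and their ranges overlapped, as did those of S100b and Ntsr2, although S100b was the higher in each library. Fgfr3 (19.7 FPKM), Slc4a4 (17.8), Aldh1l1 (13.6) and Slco1c1 (12.7) followed, each range overlapping that of the next. The low band was Sox9 at 7.88, Btbd17 at 6.31 and Nfia at 4.32 FPKM. The order of Sox9 and Btbd17 differed between groups: Sox9 had 8.87 ± 0.270 FPKM against 4.94 ± 0.263 for Btbd17 in shScr, and 6.89 ± 1.02 against 7.68 ± 0.625 in shFabp7 (SD, n = 3 each). In shFabp7 library 1 Sox9 was still the higher of the pair, at 8.07 against 7.32 FPKM, while in libraries 2 and 3 Btbd17 was, at 8.40 against 6.42 and 7.32 against 6.19.

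Measured against each other, the genes had differences in both directions. The 10 genes together held 909, 858 and 837 CPM in shScr libraries 1 to 3 and 846, 919.9 and 922 CPM in shFabp7 libraries 1 to 3, ranges that overlapped. Relative to the mean log2 CPM of the other 9 genes, Btbd17 was -2.35, -2.43 and -2.40 in shScr and -1.75, -1.62 and -1.82 in shFabp7, a difference of 0.66. Sox9 was -1.09, -1.07 and -0.96 in shScr and -1.18, -1.63 and -1.68 in shFabp7, a difference of -0.45. For both genes the groups were apart on this scale, and they were also apart against the mean of 35 other astrocyte-enriched genes, with differences of 0.65 and -0.36. Nfia and Mlc1 were also apart relative to the other 9, at -0.16 and -0.09. For every gene but Btbd17 the other 9 include Btbd17, so its rise by itself lowers their values on this scale. The log2 fold change of Mlc1 in CPM was 0.00095. Against the 35 genes Nfia overlapped at -0.09, while Mlc1 was apart at -0.04. The remaining 6 genes overlapped on both scales, with differences from -0.20 for Slc4a4 to 0.17 for Aldh1l1 against the other 9. On the plain CPM scale 22.9% of all genes tested were apart. The share of all genes apart on these relative scales was not computed, so the number of members apart is not shown to be unusual. These values describe the libraries and carry no test.

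**Figure D3:**
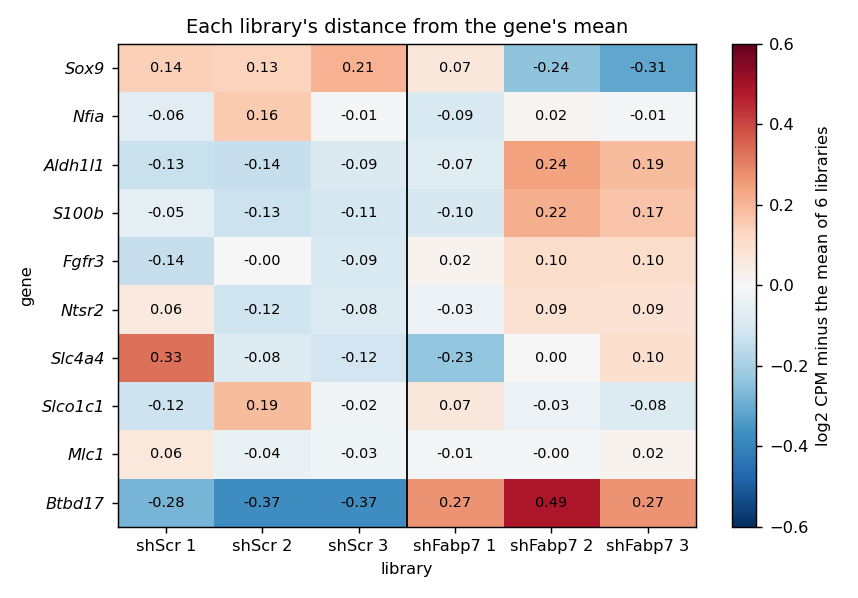
Log2 CPM of each gene (rows) in each library (columns) minus the gene's mean over the 6 libraries, with the value in each cell. Btbd17 is negative in all 3 shScr libraries and positive in all 3 shFabp7 libraries, whereas for Sox9, Aldh1l1 and S100b shFabp7 library 1 has values (0.07, -0.07 and -0.10) unlike those of shFabp7 libraries 2 and 3.

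Within the shFabp7 group, library 1 was unlike libraries 2 and 3 for Sox9, Aldh1l1 and S100b. It was also the 1 male library of that group and held the most Fabp7, 5.55 CPM against 2.49 and 3.52. Within the male libraries the log2 ratio of shFabp7 to shScr was -0.07 for Sox9, 0.06 for Aldh1l1 and -0.01 for S100b. Within the female libraries it was -0.49, 0.30 and 0.30. These ratios rest on 1 library on one side of each comparison, and whether they differ between the sexes was not tested. With sex as a covariate the log2 fold changes were -0.28 for Sox9, 0.18 for Aldh1l1 and 0.15 for S100b, and none passed. Without shFabp7 library 1 they were -0.44, 0.33 and 0.29, and again none passed.

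Other astrocyte-enriched genes had estimates in both directions. Of 35 such genes, all tested, 0 passed the threshold in edgeR, 21 were above 0 and 14 below, and the median was 0.08. An unadjusted p under 0.05 in edgeR was found for 13, of which 9 were higher and 4 lower, beside 16.8% of all genes tested. DESeq2 called 3, all higher, Glul and Chrdl1 among them, beside 4.28% of the 15849 genes to which it gave an adjusted p. Slc1a2, the main glutamate transporter of astrocytes, averaged 2737 ± 297 CPM among shScr libraries and 3100.1 ± 182 CPM among shFabp7 libraries (SD, n = 3 each), groups that overlapped. Its log2 fold change of 0.18 (adjusted p 0.326 in edgeR) fell to 0.02 once the regional score was a covariate, and to 0.10 without shScr library 1. Glul, glutamine synthetase, had a log2 fold change of 0.33 with an adjusted p of 0.0720 in edgeR. It passed in 5 of 16 alternatives, among them DESeq2, limma-voom and the fit without shScr library 2 (adjusted p 0.0227). The fit without shScr library 2, in which other genes named below also passed, called 900 of 17522 genes. With all libraries 20 of 17185 were called. Chrdl1, a secreted BMP antagonist of astrocytes that promotes synapse maturation, was picked out with its values known. It had 16.8, 17.6 and 12.04 CPM in shScr and 27.4, 27.3 and 23.98 CPM in shFabp7, and a log2 fold change of 0.76 with an adjusted p of 0.0671. It passed in 6 of 16 alternatives, among them without shScr library 1 (adjusted p 0.0406) or 2 (0.0163). Summed over the list of 35, the level was 10157 to 10500 CPM in shScr and 10610 to 11630 CPM in shFabp7, so these groups did not overlap. Slc1a2 and Glul were the largest parts of this sum. Taken singly, the groups were apart for 9 genes that were higher and 4 that were lower, beside 22.9% of all genes tested. The 4 lower genes, named after their values were seen, had log2 fold changes of -0.34 (Aqp4), -0.16 (Slc1a3), -0.23 (Ppp1r3c) and -0.98 (Itih3). Reactive astrocyte genes (17, all tested) had a median of -0.39 with 14 below 0 and 0 past the threshold in edgeR. Of the 17, 7 had an unadjusted p under 0.05 in edgeR and 5, Gfap among them, were called by DESeq2, all lower. The shares over all genes were again 16.8% and 4.28%. Gfap, the intermediate filament gene, had 249, 239.8 and 311 CPM in shScr and 134, 161 and 168 CPM in shFabp7 (log2 fold change -0.79, adjusted p 0.0597, or 0.0165 without shScr library 2). Gfap passed in 7 of 16 alternatives. Vim, another filament gene, had -0.13, which became -0.21 and -0.05 when shScr library 1 or shScr library 2 was left out. Summed reactive genes were at 427 to 480 CPM in shScr and 287 to 311 CPM in shFabp7, apart, while the summed 10 identity genes overlapped. Gfap was the largest part of the reactive sum, with means of 267 and 154 CPM. Taken singly, 5 of the 17 reactive genes had groups that were apart, all lower, beside 22.9% of all genes tested.

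**Figure D4:**
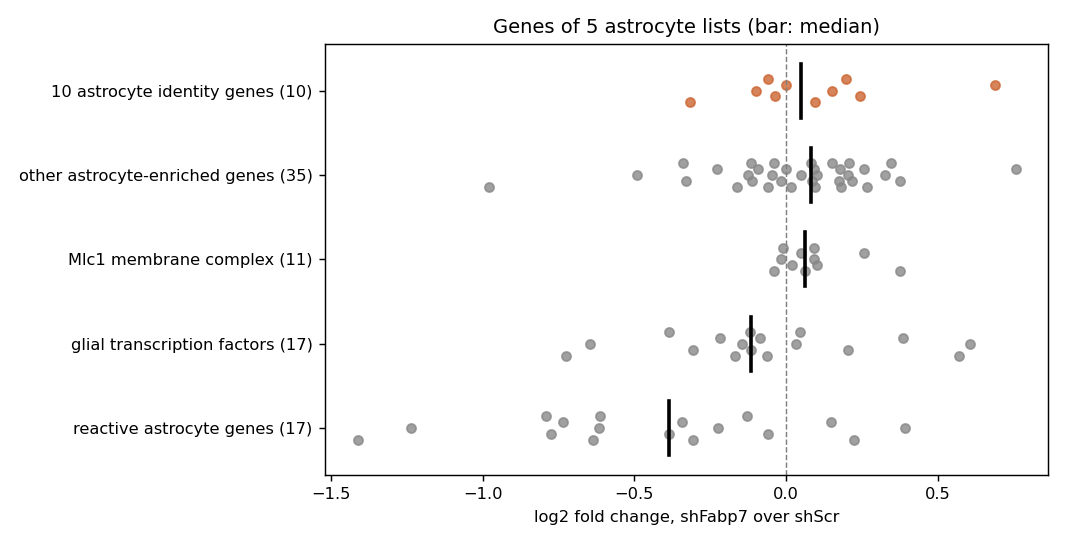
Log2 fold changes, shFabp7 over shScr (horizontal axis), of the genes in 5 lists, with the number of genes tested in brackets and the median as a bar; points are spread vertically to be visible. Medians are 0.05 for the 10 identity genes, 0.08 for the other astrocyte-enriched genes, 0.06 for the Mlc1 complex, -0.11 for the glial transcription factors and -0.39 for the reactive genes.

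Other transcription factors of glia (17 genes) gave 0 calls in edgeR, 6 values above 0 and 11 below, a median of -0.11 and 7 genes at an unadjusted p under 0.05. DESeq2 called 2 higher, Nfic among them, and 3 lower, namely Hes5, Rfx4 and Zbtb20. Over all genes the shares were 16.8% at an unadjusted p under 0.05 in edgeR and 4.28% called by DESeq2. Nfix and Zbtb20, which had the highest mean CPM, differed by 0.20 and -0.39 on the log2 scale, neither past the threshold, with Nfix changing sign with the regional score and without shScr library 1. Zbtb20 was -0.15 with the regional score, and passed at -0.49 without shScr library 2 (adjusted p 0.00938). The following were named after their values were seen. Among relatives of Nfia, Nfib had -0.06, a value that turned without shScr library 3, and Nfic had 0.60, from 112 ± 24.9 to 169.6 ± 22.4 CPM (adjusted p 0.193). The Nfic value was 0.27 with the regional score, and passed at 0.80 without shScr library 2 (adjusted p 0.0167). Hes5, an effector of Notch signalling in glia, had 16.8, 14.2 and 12.6 CPM in shScr and 10.6, 7.53 and 8.26 CPM in shFabp7 (log2 fold change -0.72, adjusted p 0.0868, or 0.0478 without shScr library 2). Rfx4, a winged-helix factor of neural progenitors and astrocytes, had 19.1, 21.8 and 18.4 against 14.6, 10.3 and 12.95 CPM (-0.65, adjusted p 0.0814). For both genes every shFabp7 library was below every shScr library.

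Genes around the receptors also gave 0 calls in edgeR. The counts below stand beside 16.8% of all genes at an unadjusted p under 0.05 in edgeR and 4.28% called by DESeq2. Of 17 fibroblast growth factor ligands, receptors and targets, 12 were above 0 and 5 below (median 0.14), 3 had an unadjusted p under 0.05 and DESeq2 called 0. Spred1 and Etv5, an inhibitor and a transcription factor downstream of these receptors, had 0.31 and 0.39, and neither passed. Both depended on the shScr libraries: Spred1 was 0.11 without shScr libraries 1 and 3 and passed at 0.42 without shScr library 2 (adjusted p 0.0135), and Etv5 was 0.20 without shScr library 1, 0.60 without shScr library 2 and 0.09 once the regional score was included. Fgfr1 and Fgfr2, the other receptors of the family on the list and named after their values were seen, had estimates opposite to that of Fgfr3. Fgfr1 had 87.7, 73.2 and 81.7 CPM in shScr and 71.9, 68.02 and 62.3 CPM in shFabp7, which gives -0.26 on the log2 scale (SE 0.08, adjusted p 0.172 in edgeR, or 0.0416 without shScr library 2). Fgfr2 had 48.1, 56.2 and 47.2 CPM in shScr and 45.5, 37.8 and 39.3 CPM in shFabp7, which gives -0.31 (SE 0.10, adjusted p 0.176). The difference between receptors was not tested. In the neurotensin system (4 genes), 3 had an unadjusted p under 0.05 and DESeq2 called 1 higher (Sorl1) and 1 lower (Nts). Sort1 and Sorl1, sorting receptors, had 0.22 and 0.42, and 0.06 and 0.15 with the regional score. Sort1 was 0.11 without shScr library 1, and Sorl1 passed at 0.53 without shScr library 2 (adjusted p 0.0326). Nts, the peptide precursor gene, and Ntsr1, the high-affinity receptor gene, were named after their values were seen. Nts had 19.99, 2.87 and 4.25 CPM in shScr and 0.836, 0.547 and 1.65 CPM in shFabp7, so every shFabp7 library was below every shScr library. Its log2 fold change of -3.13 had an adjusted p of 0.257 in edgeR and 0.0278 in DESeq2, and was -1.78 without shScr library 1, which also had the highest regional marker score, and -1.07 with that score as a covariate. Ntsr1, known from deep-layer cortical neurons, had 10.4, 8.02 and 8.39 CPM in shScr and 6.45, 4.62 and 6.61 CPM in shFabp7 (log2 fold change -0.60, adjusted p 0.162), and -0.30 with the regional score.

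Partners and relatives of the transport and enzyme genes stayed without calls in edgeR as well. Their counts stand beside the same shares over all genes, 16.8% at an unadjusted p under 0.05 in edgeR and 4.28% called by DESeq2. The Mlc1 membrane complex (11 genes, of which Gja1, Gjb6 and Gpr37l1 are also among the 35 astrocyte-enriched genes) had 8 values above 0 and 3 below, a median of 0.06 and 1 gene at an unadjusted p under 0.05. Hepacam, the adhesion protein that binds Mlc1, was named after its values were seen and had 88.7, 88.7 and 85.5 CPM in shScr and 90.8, 92.0 and 97.5 CPM in shFabp7 (log2 fold change 0.09, adjusted p 0.442). Its most highly expressed members Atp1b1, a sodium pump subunit, and Gja1, the gap junction protein connexin, had 0.02 and -0.02, and both signs turned with the regional score. Bicarbonate transporters and carbonic anhydrases (11 of 12 tested) had 8 values above 0, a median of 0.16, 5 genes at an unadjusted p under 0.05, and 2 higher and 1 lower in DESeq2. Slc4a10 and Slc4a3, the relatives of Slc4a4 with the highest mean CPM on the list, had 0.01 and -0.02, and both signs turned with the setting. The genes DESeq2 called were named after their values were seen. Slc4a7, another relative, had -0.46 (adjusted p 0.0833 in edgeR and 0.0104 in DESeq2). The carbonic anhydrase genes Car8 and Car10 had 0.75 and 0.47 (adjusted p 0.0597 and 0.148 in edgeR). Of thyroid hormone and organic anion transport genes (11 of 12 tested), 5 were above 0 (median -0.08) and 1 had an unadjusted p under 0.05; Thra, the thyroid hormone receptor, had -0.17, or -0.09 without shScr library 3. The deiodinase gene Dio2 had 0.35, which turned when the regional score was a covariate or shScr libraries 1 and 3 were left out, was 0.16 without shScr library 1, and passed at 0.62 without shScr library 2 (adjusted p 0.0255). Folate one-carbon enzymes (14 of 15 tested) had 5 above 0, a median of -0.08 and 1 at an unadjusted p under 0.05, with Mthfd1 at -0.12, or -0.05 without shFabp7 library 1. Relatives of S100b (7 of 11 tested) had 2 above 0, a median of -0.16 and 1 at an unadjusted p under 0.05, with S100a1 at -0.08, turning with the regional score, and S100a16 at -0.16. DESeq2 called 1 of the S100 relatives higher and 0 of the Mlc1, thyroid and folate lists.

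Summed markers of some other cells were apart between the groups, although 0 of the marker genes below passed the threshold in edgeR. Their part in the values of the 10 genes was not tested. Summed excitatory neuron markers (12 genes) ran from 4810 to 6664 CPM in shScr and from 7439 to 8552 CPM in shFabp7, with no overlap. Camk2a was the largest part of this sum, with means of 3192 and 4136 CPM. Taken singly, 4 of the 12 excitatory markers were apart, all higher, and 5 of the 10 microglia markers, all lower, beside 22.9% of all genes tested. Estimates were below 0 for 2 of the excitatory and above 0 for 2 of the microglia markers. Microglia markers (10 genes) ran from 488 to 508 and from 428 to 476 CPM, also apart, and fibroblast markers (8 genes) from 129.8 to 167 and from 96.8 to 131 CPM, overlapping. Markers of inhibitory neurons, oligodendrocyte precursors and mural cells overlapped. Each of these marker genes had reads in the 6 libraries together. Cortical excitatory markers were thus present in every library, as the tissue label states.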

How the data were processed

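Reads per gene were deposited by the authors as raw counts without normalization, with the columns that featureCounts writes, per the file headers. Trimmomatic 0.36, STAR 2.5.2b, Subread 1.5.2, DESeq2 and GRCm39 are named in the submitters' processing notes without a role. Gene positions in the files match GRCm38: 91.4% of 49056 gene IDs found in GENCODE M21 have identical coordinates. Whether counting used strand is not stated in the labels or headers.

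The members and lists were chosen with earlier results of these data known. Genes were filtered by filterByExpr and scaled by TMM. Groups, taken from sample titles, were compared by edgeR 4.0.16 (R 4.3.3; quasi-likelihood, robust, group alone, two-sided), with Benjamini-Hochberg adjustment over the 17185 genes tested. SE is the log2 fold change over the square root of F, and 95% intervals use the test's degrees of freedom and are not adjusted for the number of genes. FPKM used total counts and the exon length in the files. Log2 CPM per library used a pseudocount of 0.1. The rule for names took all 10 members, Fabp7 and, per list, up to 4 called genes or, with none called, the 2 of highest mean CPM; 1 such gene is not reported here. Sex was assigned by comparing Xist with Y-linked genes. Alternatives were DESeq2 1.42.0, limma-voom 3.58.1, RLE and upper-quartile factors, no filter, 1 CPM in 3 samples, the replicate number as a block, sex or a regional score as a covariate, and libraries left out. Depth limits precision through counting error, larger for Btbd17 (277 to 453 reads per library) than for Slc4a4 (2721 to 4417).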

Additional observations from a re-analysis of the deposited data

Results flagged for a closer look

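Nfia and Slc4a4 were singled out by the order of their libraries. The 1 male shFabp7 library lay below the 2 male shScr libraries, and the 2 female shFabp7 libraries lay above the 1 female shScr library. For Nfia the female order was narrow, with 46.69 CPM in shFabp7 library 3 against 46.59 CPM in shScr library 3. The share of all genes with such an order was not computed, so 2 of 10 genes is not shown to be unusual. The log2 ratio of shFabp7 to shScr was -0.14 in the male and 0.015 in the female libraries for Nfia, and -0.37 and 0.17 for Slc4a4. Sex was read from the data, each comparison has 1 library on one side, and the difference between the sexes was not tested.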

How the results depend on the processing

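Of the 10 genes, 1 was called (Btbd17), and the number was 3 without a filter on low counts (Btbd17, Aldh1l1, Sox9), 0 with sex or with the regional score as a covariate, and 0 to 1 when each library was left out in turn. It was 1 under the other settings tried, the replicate block among them. Over all genes the 20 calls became 679 in DESeq2, 109 in limma-voom, 1617 without a filter, 629 with the replicate block, 7 with sex, 7 with the regional score, 120 without shScr libraries 1 and 3, 292 at a threshold of 0.1, and 0 to 900 with each library left out. They were 0 without shFabp7 library 2 or 3, 10 without shFabp7 library 1, 182 without shScr library 1 and 900 without shScr library 2. Same-numbered libraries had correlations of 0.081, 0.154 and 0.057 in their deviations from the group means, not every one of them correlated best with its own number, and they were not treated as pairs. Some signs turned, for values near 0 and for Nfix (0.20) and Dio2 (0.35). With the regional score, values were 0.093 for Slc4a4, -0.25 for Nfix, -0.12 for Slc4a10, -0.019 for Dio2, -0.067 for Atp1b1, 0.059 for Gja1 and 0.024 for S100a1. Without shScr libraries 1 and 3 they were 0.039, -0.17, -0.11, -0.081, -0.019, 0.080 and 0.038 for the same genes. Mlc1 was -0.0033 without a filter, Slc4a10 -0.0068 in limma-voom and Slc4a3 0.012 with sex. With each library left out, values ran from -0.017 to 0.035 for Mlc1, -0.10 to 0.011 for Nfia, -0.18 to 0.059 for Slc4a4, -0.10 to 0.056 for Slco1c1, -0.19 to 0.091 for Nfib, -0.061 to 0.44 for Nfix, -0.083 to 0.083 for Slc4a10, -0.057 to 0.015 for Slc4a3, -0.024 to 0.071 for Atp1b1 and -0.062 to 0.023 for Gja1. The cause of these changes was not tested. The 95% intervals of the 9 genes not called lay between -0.55 and 0.43, and changes inside each gene's interval are not resolved with 3 libraries per group.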
